A study of Caenorhabditis elegans with 2 samples.

Results

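The genes described here are the nuclear tRNA genes of Caenorhabditis elegans that do not lie wholly inside a protein-coding gene. Among 612 annotated nuclear tRNA genes, 322 met this rule and 290 lay inside the span of a protein-coding gene. Of the 322, 3 overlapped a protein-coding gene in part and the others were intergenic with respect to protein-coding genes. Each gene was given the strongest entry of a peak list whose summit, the highest point of the entry, lay within 100 bp of the gene. A gene with no such entry was left unscored.

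The peak lists come from chromatin immunoprecipitation and sequencing (ChIP-seq) of FLH-1 in mixed-stage embryos. With 1 group of 2 biological replicates, no conditions were compared. Both replicates were strain OP702, which carries the unc-119(tm4063) mutation and the insertion wgIs702, a transgene of flh-1 joined to TY1, EGFP and 3xFLAG tags together with a working unc-119(+) copy. Embryos were collected by egg bleaching, pooled over both sexes and labelled with an age of 2 hours. Sonicated chromatin was precipitated with an antibody against GFP, and the antibody entry of the labels names flh-1, the tagged protein. No precipitation from an untagged strain and no mock precipitation was analysed here, and whole embryos do not show which cells a peak came from.

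Transfer RNA genes are read by RNA polymerase III from promoter elements inside the gene, the A box and the B box, which the factor TFIIIC binds. Transcription ends at a short run of T bases just after the gene. FLH-1 has a FLYWCH zinc finger, binds DNA and is known as a repressor of embryonic microRNA genes.

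The 4 genes shown first are among the strongest 20 members by pooled signal, but they are not the 4 strongest. C42D8.t1 (280), W03G11.t1 (274) and M02F4.t2 and M02F4.t1 (245 each) stood above F57F5.t1 (228), and their gene sequences are not printed. C53C7.t2 (223), also not printed, stood above R04D3.t2 (217) and F28H6.t1 (213) and had no match to the A box start. Sequences were read from the RefSeq genome of WBcel235, along the strand of the gene. Capitals mark the start of the A box, searched as TNGNNNA in the first 20 bases, and the core of the B box, searched as GTTCNANNC. C04A11.t1 (leucine, chrX:13665555-13665673, plus strand), F57F5.t1 (isoleucine, chrV:12002176-12002260, plus strand), R04D3.t2 (valine, chrX:13307034-13307106, plus strand) and F28H6.t1 (arginine, chrX:14115691-14115763, plus strand) had these sequences:
C04A11.t1: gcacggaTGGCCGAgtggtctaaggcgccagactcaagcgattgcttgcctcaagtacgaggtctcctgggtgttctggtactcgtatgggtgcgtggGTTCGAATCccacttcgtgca
F57F5.t1: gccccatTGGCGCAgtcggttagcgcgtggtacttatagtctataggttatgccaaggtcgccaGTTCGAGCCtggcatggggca
R04D3.t2: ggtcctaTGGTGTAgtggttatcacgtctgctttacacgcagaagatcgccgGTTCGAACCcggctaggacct
F28H6.t1: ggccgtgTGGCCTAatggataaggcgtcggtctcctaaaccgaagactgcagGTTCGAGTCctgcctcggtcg

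The second set shows copies of the same gene with and without a peak. A proline tRNA gene was present in 13 identical copies among the members, each with the sequence of ZK899.t1 (chrX:9467729-9467800, minus strand), in which capitals mark the A box start and the B box core as above:
ZK899.t1: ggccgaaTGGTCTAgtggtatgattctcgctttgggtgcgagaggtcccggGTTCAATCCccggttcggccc
The 100 bases upstream of the 3 copies with the highest pooled signal follow, ZK899.t1 (chrX:9467801-9467900, minus strand), F46G11.t2 (chrX:5801283-5801382, minus strand) and T23F1.t2 (chrV:15465297-15465396, minus strand). Capitals mark the word GAGAGA or its complement TCTCTC, the word described below. The optimal summit of T23F1.t2 lay 104 bp after its 5′ end, past the gene, and was shared with T23F1.t1. It thus lay on the other side of the gene from the bases shown.
ZK899.t1 upstream: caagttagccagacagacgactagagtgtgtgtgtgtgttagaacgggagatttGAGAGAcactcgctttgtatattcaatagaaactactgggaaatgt
F46G11.t2 upstream: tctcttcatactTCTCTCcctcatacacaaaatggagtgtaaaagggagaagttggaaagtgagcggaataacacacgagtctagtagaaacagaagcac
T23F1.t2 upstream: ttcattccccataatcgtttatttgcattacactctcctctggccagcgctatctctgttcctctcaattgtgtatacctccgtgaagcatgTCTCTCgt
The same 100 bases are shown for 3 of the copies with no entry in the pooled list or in either replicate list, C48C5.t3 (chrX:8969560-8969659, minus strand), F23D12.t2 (chrX:14437945-14438044, minus strand) and Y7A5A.t3 (chrX:15796695-15796794, minus strand). None of these 3 held the word. The counts for all 13 copies are given with the word, beside those of other families, which did not all differ in this way.
C48C5.t3 upstream: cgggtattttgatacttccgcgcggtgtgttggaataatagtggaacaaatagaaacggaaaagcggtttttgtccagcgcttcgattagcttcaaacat
F23D12.t2 upstream: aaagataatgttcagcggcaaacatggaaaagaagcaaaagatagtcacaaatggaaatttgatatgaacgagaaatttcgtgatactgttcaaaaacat
Y7A5A.t3 upstream: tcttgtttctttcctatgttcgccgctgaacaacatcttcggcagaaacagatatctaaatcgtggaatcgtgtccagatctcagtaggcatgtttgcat

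The third set is the upstream region of 5 of the strongest members that hold the word, with the same capitals. These were picked because they hold it, and the word was upstream of only 11 of the strongest 20 members. M02F4.t2 and M02F4.t1, with a higher pooled signal than F57F5.t1, lacked it. They were C04A11.t1 (chrX:13665455-13665554, plus strand), C42D8.t1 (chrX:5085696-5085795, minus strand), W03G11.t1 (chrX:12106220-12106319, minus strand), F57F5.t1 (chrV:12002076-12002175, plus strand) and C53C7.t2 (chrX:13046448-13046547, minus strand).
C04A11.t1 upstream: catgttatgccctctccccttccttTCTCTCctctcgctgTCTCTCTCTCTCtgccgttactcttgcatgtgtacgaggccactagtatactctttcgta
C42D8.t1 upstream: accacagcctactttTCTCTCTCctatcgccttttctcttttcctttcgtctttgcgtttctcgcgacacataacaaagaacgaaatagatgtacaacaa
W03G11.t1 upstream: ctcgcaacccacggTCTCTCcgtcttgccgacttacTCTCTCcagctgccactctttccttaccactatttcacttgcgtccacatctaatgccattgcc
F57F5.t1 upstream: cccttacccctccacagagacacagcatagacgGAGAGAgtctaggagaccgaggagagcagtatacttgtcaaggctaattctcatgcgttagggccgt
C53C7.t2 upstream: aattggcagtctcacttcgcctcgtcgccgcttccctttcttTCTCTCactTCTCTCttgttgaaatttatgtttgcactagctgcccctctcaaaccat

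The first question was how many of these genes carried a peak. The optimal set, the peaks kept by the irreproducible discovery rate procedure, placed a summit within 100 bp of 76 of the 322 genes (23.6%, exact 95% interval 19.1 to 28.6), through 71 distinct summits. The strongest 185 optimal peaks alone gave 47 genes. The share over all 612 nuclear tRNA genes was 23.4%, whereas 0.0982% of windows of 272 bp tiled over the nuclear chromosomes held an optimal summit. A further 103 genes had an entry in the relaxed pooled list of 30000 entries without an optimal peak, and 143 had no pooled entry. Any pooled entry was thus present at 179 of the 322 genes (55.6%, 49.98 to 61.1), where 7.97% of the tiled windows held a pooled summit. The intervals treat genes as independent, which genes of 1 pool of embryos and genes that share a summit are not. Read counts are not part of the deposited lists, and the depth behind each value is unknown.

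Genes inside and outside protein-coding genes were then compared. An optimal peak was found at 76 of 322 genes outside and at 67 of 290 genes inside (23.1%, 18.4 to 28.4), a difference of 0.499 percentage points with a 95% interval of −6.24 to 7.16 (two-sided Fisher's exact test, Benjamini-Hochberg adjusted p = 0.924 over 2 comparisons). This p does not show that the shares were equal. Annotated tRNA pseudogenes, copies of tRNA genes not annotated as working genes, differed from the members. An optimal peak was found at none of 96 pseudogenes outside protein-coding genes, a count that allows a share of up to 3.125% by 3 counts of the total and 3.77% by the exact 95% interval. The difference was 23.6 points (95% interval 17.8 to 28.5, two-sided Fisher's exact test, adjusted p = 9.23e-10 over the same 2 comparisons). How unique the sequence of the pseudogenes and their flanks is in the genome is not given here. A missing peak there thus cannot be told apart from reads that match several places. Letter matches to both the A box start and the B box core were found in 284 of the 322 genes (88.2%) and in 69 of the 96 pseudogenes (71.9%). Of those 69 pseudogenes, 9 had a weak pooled entry. A missing match does not show that the element is missing.

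The signal value of an entry, given by the authors' peak caller, was used only to describe and rank entries within a list. Over the 179 scored members the pooled signal ran from 24.3 to 371 with a median of 71.7, where all nuclear entries of that list had a median of 32.1. In the replicate lists the members' medians were 49.98 over 172 scored genes in replicate 1 and 28.4 over 163 in replicate 2, against medians of 24.0 and 13.1 over all nuclear entries. The 76 genes with an optimal peak had a median pooled signal of 133, and the weakest of them stood at 90.3, the weakest signal of the whole optimal set. Just below that limit stood F15D3.t1 (lysine, pooled 90.1), C29F7.t3 (isoleucine, 87.0) and F12D9.t1 (cysteine, 84.0). The optimal set comprised exactly the strongest 371 pooled entries, so this limit divides a continuous range of signal.

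The strongest member was C04A11.t1, a leucine gene with an intron, whose signal was 371 in the pooled list, 244 in replicate 1 and 122 in replicate 2. It ranked at 14 in the pooled list and in replicate 1, and at 19 in replicate 2, 175 bp from the 3′ end of C04A11.5. The isoleucine gene C42D8.t1 followed, with 280 in the pooled list, 159 in replicate 1 and 122 in replicate 2, at 1096 bp from the 5′ end of ets-5. Both genes were thus among the strongest entries of each replicate, and neither had another tRNA gene within 1000 bp.

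The lysine gene W03G11.t1, 45 bp from the 3′ end of the collagen gene col-181, had 274 pooled, 184 in replicate 1 and 92.6 in replicate 2. The glutamate gene M02F4.t2 and the glycine gene M02F4.t1, on opposite strands near cnnm-3, shared 1 summit with 245 pooled, 179 in replicate 1 and 58.0 in replicate 2. The isoleucine gene F57F5.t1, near the guanylyl cyclase gene gcy-33, had 228 pooled, 159 in replicate 1 and 86.9 in replicate 2. These values kept the same order in the pooled list and in replicate 1, whereas in replicate 2 the shared summit of the M02F4 pair stood below that of F57F5.t1.

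Next came C53C7.t2 (serine, pooled 223), R04D3.t2 (valine, 217), F28H6.t1 (arginine, 213) and F52H2.t2 (asparagine, 213). The signals of R04D3.t2 in replicates 1 and 2 were 142 and 75.7, and the 3′ end of srxa-8 lay 46 bp away. F28H6.t1 had 146 and 71.5 in replicates 1 and 2, and F52H2.t2 had 148 and 67.1, at 348 bp and 544 bp from the 5′ ends of F28H6.7 and smvt-1. The 10 strongest members thus spanned many isotypes, and all lay on chromosome X other than F57F5.t1 on V.

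The other members of the strongest 20 were ZK678.t1 (leucine, pooled 210), C33G3.t2 (lysine, 205), T07H6.t2 (alanine, 203), F35H8.t1 (arginine, 200.3), F34H10.t1 (alanine, 197), ZK899.t1 (proline, 190), F56F3.t1 (arginine, 190), R01H5.t1 (threonine, 188), F56C3.t1 (glycine, 182) and C02B4.t1 (isoleucine, 181). F35H8.t1 lay on chromosome II and F56F3.t1 on III, and the rest on X. On X 42 of 180 members had an optimal peak (23.3%, 17.4 to 30.2), and on the autosomes 34 of 142 (23.9%, 17.2 to 31.8). The intervals overlapped over most of their length.

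Agreement of the replicates was examined at the members. Both replicate lists scored 131 of the 322 genes, replicate 1 alone 41, replicate 2 alone 32, and 115 genes had no entry in any list. Of the 76 genes with an optimal peak, 74 had an entry in both replicates. Among the strongest 371 entries of each replicate, 55 of the 76 appeared in both lists, 13 only in that of replicate 1 and 7 only in that of replicate 2, and 1 was absent from both. Across the 131 genes scored in both, the log2 signals gave a Pearson correlation of 0.81 and a Spearman correlation of 0.83. Across the 74 with an optimal peak these were 0.67 and 0.64. The points share 2 libraries and were scored by the same rule, and the second set had been selected on its pooled signal.

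The signal of replicate 1 was 1.88 times that of replicate 2 at the median member, a difference of scale between the lists. Relative to that median, and among the members with an optimal peak, the glutamine gene T03E6.t1 was the most shifted towards replicate 1, with 102 in replicate 1 and 25.1 in replicate 2 (1.12 on the log2 scale). The tyrosine gene T22F7.t1 had 98.8 and 24.6 in replicates 1 and 2 (1.10), the alanine gene ZK622.t1 had 111 and 31.1 (0.93) and the proline gene F46G11.t2 had 127 and 38.5 (0.82). The tyrosine gene K09A11.t1 was shifted the other way, with 48.6 in replicate 1 and 47.0 in replicate 2 (−0.86).

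**Figure D1:**
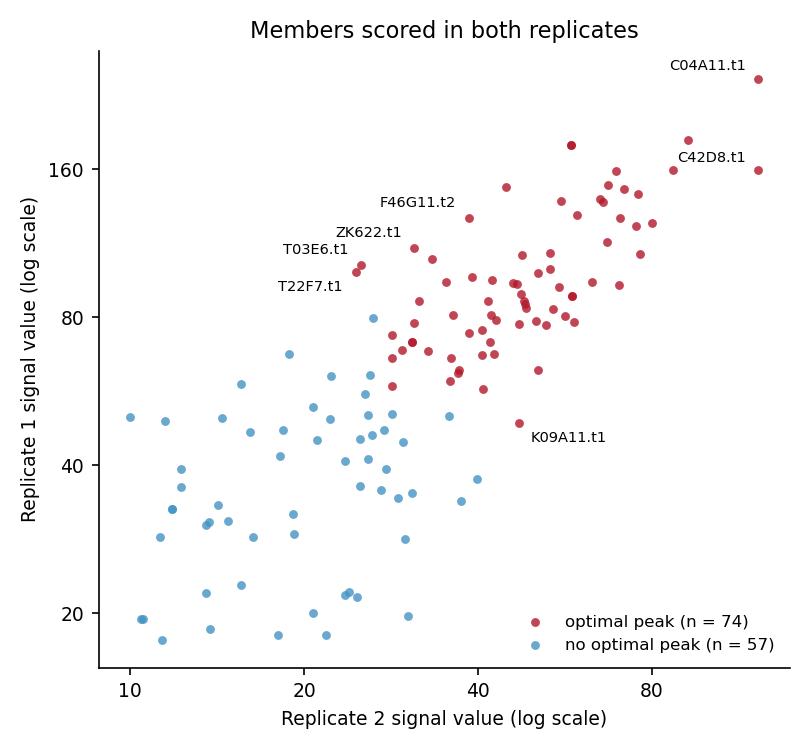
Signal values of the members scored in both replicate lists, replicate 2 on the horizontal and replicate 1 on the vertical axis, both on log scales, with genes that have an optimal peak (n = 74) in red and the others (n = 57) in blue. The red points fill the upper right, led by C04A11.t1 at 244 and 122, and the labelled genes T03E6.t1, T22F7.t1, ZK622.t1 and F46G11.t2 lie above the diagonal trend while K09A11.t1 lies below it.

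The genes were next described by the amino acid their tRNA carries. Every standard isotype other than tryptophan had at least 1 member with an optimal peak, and anticodons were not used here. Proline genes had a peak at 8 of 20 (exact 95% interval 19.1% to 63.9%), lysine genes at 7 of 20, alanine and leucine genes at 6 of 19 each, and glutamate genes at 8 of 29. Threonine genes had one at 1 of 19 (5.26%, 0.133 to 26.0), histidine genes at 1 of 13, asparagine and phenylalanine genes at 1 of 8 each and glutamine genes at 2 of 15. These intervals were wide, and those of proline and threonine overlapped.

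The 5 tryptophan genes among the members had no optimal peak (exact 95% interval 0% to 52.2%). They include sup-21, sup-24 and sup-29, genes named as suppressors, a class in which altered tRNA genes read through stop codons. Of these sup-24 was scored, with 76.6 in the pooled list, 52.6 in replicate 1 and 20.8 in replicate 2. The genes sup-21 and sup-29 had no entry in any list. Suppressor genes did not all lack a peak, since sup-5 and sup-7, inside protein-coding genes, had optimal peaks. The sequence of sup-24 had 10 identical nuclear copies, of which only 4 were members. The lack of a peak among the members thus does not describe all nuclear tryptophan genes. The median pooled signal of scored proline genes was 127 (n = 13), of lysine genes 90.1 (n = 15) and of glycine genes 56.1 (n = 18). The only peak of a histidine gene was Y7A9D.t1, with 113 in the pooled list, 67.2 in replicate 1 and 42.6 in replicate 2. The only one of a threonine gene was R01H5.t1, with 188 in the pooled list, 147 in replicate 1 and 44.7 in replicate 2.

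**Figure D2:**
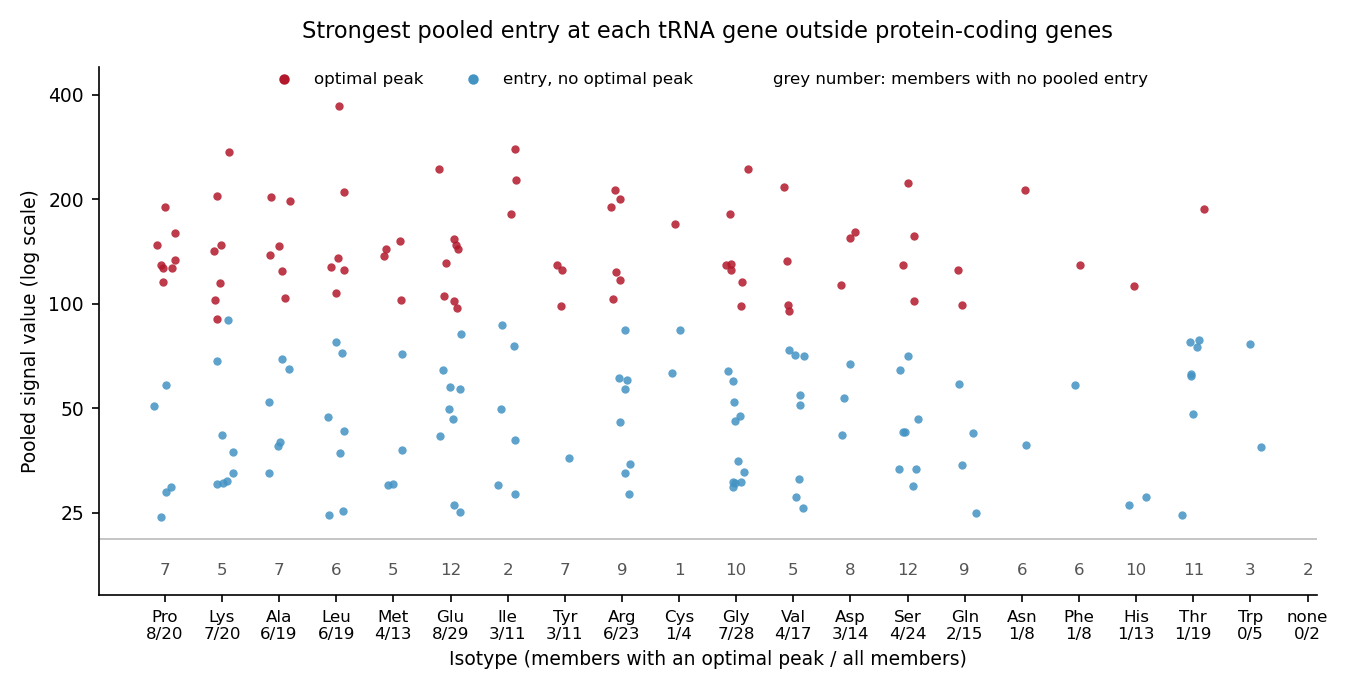
Pooled signal value (log scale) of the strongest entry at each member, by isotype in order of the share with an optimal peak, with optimal peaks in red, other entries in blue and the number of members without a pooled entry in grey below the line. Strong entries occur in nearly every isotype, from 371 at a leucine gene to 113 at the single histidine peak, and each isotype also holds members with no pooled entry.

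Many tRNA genes exist in identical copies, and these allowed genes of the same sequence to be compared. The 322 members had 130 distinct sequences, and 247 members had an identical copy elsewhere in the nuclear genome. Among 42 families of identical members, 27 families with 185 members held genes both with and without an optimal peak, 12 families with 43 members held none with a peak, and 3 families with 6 members had a peak at every member. In 24 families a member with an optimal peak stood beside a member with no pooled entry. A read that lies wholly inside identical genes cannot be assigned to 1 copy, and the read length is unknown. Over all 322 members the median share of 32-base words found once in the genome was 0% within the gene itself. It was 78.4% over the gene and 100 bp to each side. That second share had medians of 78.4% in genes with an optimal peak, 78.8% in scored genes without one and 78.1% in unscored genes. Its low values differed more. The lower quartiles were 76.7%, 76.5% and 72.7% in the same classes, and the minima were 67.6%, 42.1% and 0%. Genes with few unique words were thus mostly without an optimal peak, and a missing peak there cannot be told apart from reads that match several places.

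The 13 identical proline genes show this range. ZK899.t1 had 190 in the pooled list, 129 in replicate 1 and 59.3 in replicate 2, and F46G11.t2 had 160, 127 and 38.5 in the same lists. T23F1.t2, which shares its pooled summit with T23F1.t1, had 148, 98.1 and 50.9, and H06A10.t1 had 116, 74.4 and 38.5. These 4 had optimal peaks, whereas C16B8.t1 (pooled 58.3), C48C5.t1 (50.7), F02H6.t1 (29.6) and F46G11.t1 (24.3) had weaker entries, and C48C5.t3, F23D12.t1, F23D12.t2, Y7A5A.t2 and Y7A5A.t3 had no pooled entry. F23D12.t1 had an entry of 18.8 in replicate 1 alone. F46G11.t1, 190 bp from F46G11.t2, had the same replicate 2 entry of 38.5 as F46G11.t2. The optimal summit of F46G11.t2 lay 179 bp from F46G11.t1, beyond the limit. Genes of the same sequence thus covered the range from a strong peak to no entry.

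Letter matches to the promoter elements inside the gene were found in nearly all members, with or without a peak. The B box core was found in 308 of the 322 genes (95.7%), against 2.44% of tiled windows of 72 bases searched on both strands, and an optimal peak was present at 71 of the 308 and at 5 of the 14 genes without it. The A box start was found in 297 genes (92.2%), against 24.6% of windows, and a peak was present at 73 of the 297 and at 3 of the 25 genes without it. A run of TTTT lay within 40 bases downstream of 317 genes, against 44.4% of windows of that length, and all 76 genes with a peak were among them. Genes with an intron, annotated with 2 exons, had a peak at 6 of 17, and genes with 1 exon at 70 of 305. A match to these letters is a description and not a binding site.

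The region upstream of the gene differed between the classes, a description chosen after the values were seen. The GC content of the 50 bases upstream had a median of 46% in the 76 genes with an optimal peak, 44% in the 103 scored genes without one and 38% in the 143 unscored genes. The GC content of the gene itself had medians of 58.3%, 58.3% and 57.7% in the same classes, and that of the 50 bases downstream had medians of 24%, 26% and 26%. In bins of 20 bases, the mean centred 50 bases upstream was 49.3% in genes with a peak, 41.9% in scored genes without one and 36.7% in unscored genes. Centred 150 bases upstream it was 32.8%, 32.7% and 35.3%, so the difference was found close to the gene.

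The share of members with an optimal peak followed this measure. It was 8 of 95 genes (8.42%, 3.71 to 15.9) at an upstream GC content of up to 36%, 17 of 82 (20.7%, 12.6 to 31.1) over 36 to 42%, 30 of 85 (35.3%, 25.2 to 46.4) over 42 to 50% and 21 of 60 (23.1% to 48.4%) over 50%. The strongest 371 entries of replicate 1 gave 8, 15, 28 and 20 genes in the same bins, and those of replicate 2 gave 5, 17, 26 and 19. Genes inside protein-coding genes, which had not been used to choose the measure, gave 4 of 79 (5.06%), 12 of 60, 31 of 93 (33.3%) and 20 of 58 (34.5%). In 23 of the 27 families of identical genes with both kinds of member, the mean upstream GC content was higher in the members with the peak. Among the 179 scored members the link with the size of the pooled signal was weak (Spearman rho 0.23, as a description).

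Words of 6 bases were then counted in the 100 bases upstream, on both strands. The word with the largest difference between genes with an optimal peak and unscored genes was GAGAGA, picked from 2073 words, so its values in the members are a description. It was found upstream of 30 of the 76 genes with a peak (39.5%, 28.4 to 51.4), 21 of the 103 scored genes without one (20.4%, 13.1 to 29.5) and 10 of the 143 unscored genes (6.99%, 3.40 to 12.5). It occurred in 5.13% of tiled windows of 100 bases and in the 100 bases upstream of 8.77% of 19973 protein-coding genes. It was upstream of none of the 96 tRNA pseudogenes outside protein-coding genes (exact 95% upper limit 3.77%). GAGAGA was 1 of several words that differed. AGAGAG was upstream of 32.9% of genes with a peak and 4.90% of unscored genes. The same shares were 25% and 3.50% for CTCTCC, and 19.7% and 0.699% for AGAGTG.

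Members with the word had an optimal peak in 30 of 61 cases (49.2%, 36.1 to 62.3), and members without it in 46 of 261 (17.6%, 13.2 to 22.8). The strongest entries of replicate 1 gave 28 of 61 with the word and 43 of 261 without, and those of replicate 2 gave 27 of 61 and 40 of 261. In the tRNA genes inside protein-coding genes, where the word had not been chosen, the word was upstream of 22 of 67 genes with a peak (32.8%, 21.8 to 45.4), 15 of 104 scored genes without one (14.4%, 8.30 to 22.7) and 11 of 119 unscored genes (9.24%, 4.71 to 15.9). There a peak was found at 22 of 48 genes with the word (45.8%, 31.4 to 60.8) and 45 of 242 without it (18.6%, 13.9 to 24.1).

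The word and the GC content were not the same measure. At an upstream GC content of up to 42%, 12 of 25 members with the word had a peak (48.0%, 27.8 to 68.7) and 13 of 152 without it (8.55%, 4.63 to 14.2). Over 42%, 18 of 36 with the word had one (32.9% to 67.1%) and 33 of 109 without it (30.3%, 21.8 to 39.8). The 13 proline genes shown above are among the members the word was picked from. In them the word was upstream of 4 of the 4 with an optimal peak. It was upstream of 2 of the 4 with a weaker entry and none of the 5 with no pooled entry. In this family ZK899.t1, the strongest, had an upstream GC content of 34% and F23D12.t1, unscored in the pooled list, had 50%. Over the 27 families with both kinds of member, the word was more frequent in members with the peak in 16, less frequent in 6 and absent from every member in 5. The identical glycine genes with a peak, M02F4.t1, F56C3.t1, K09C8.t1 and Y57G11B.t1, all lacked the word. Among identical glutamate genes with a peak, Y22D7AL.t4 held it, and M02F4.t2, rte-1, rte-4 and rte-5 lacked it.

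**Figure D3:**
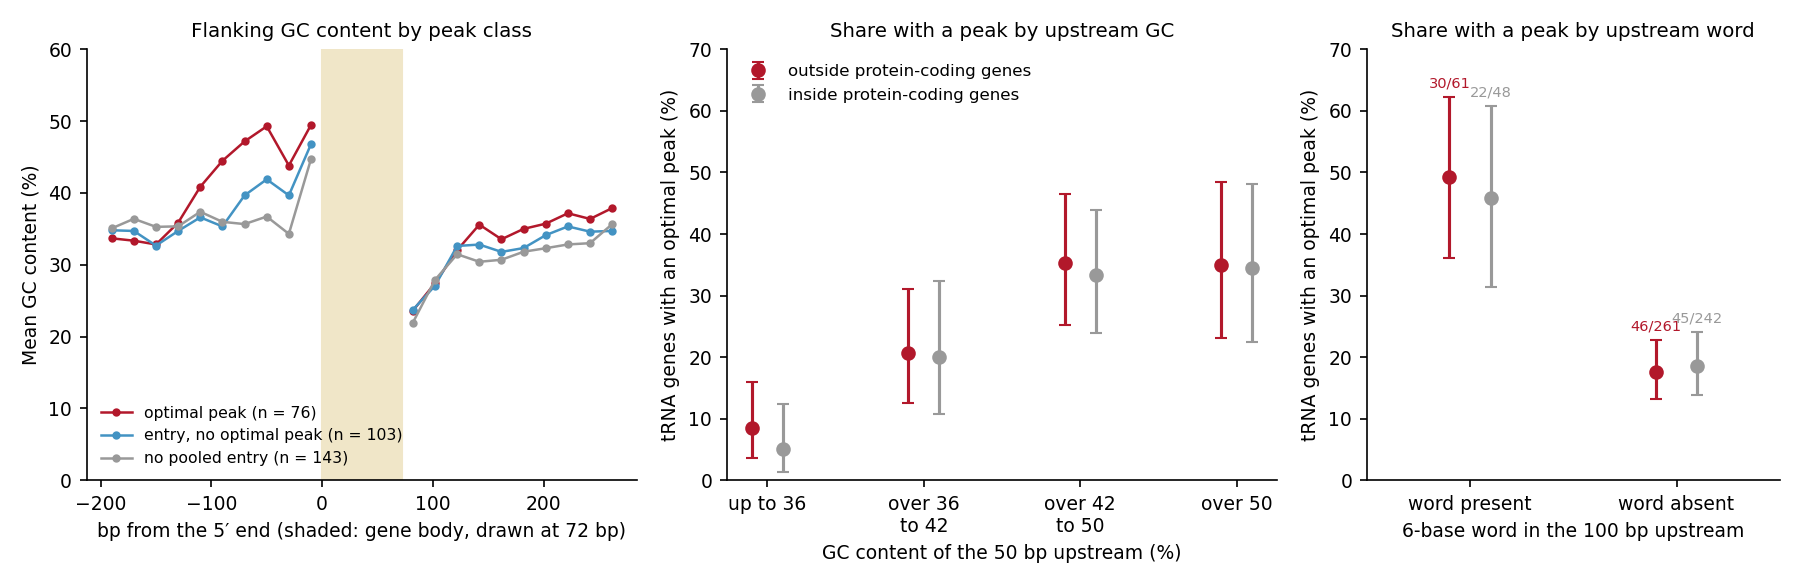
Left, mean GC content in bins of 20 bp upstream and downstream of the members, for genes with an optimal peak (n = 76), with an entry only (n = 103) and with no pooled entry (n = 143). Middle and right, the share of tRNA genes with an optimal peak by upstream GC content and by the presence of the 6-base word, outside (red) and inside (grey) protein-coding genes, with exact 95% intervals: the red points stand at 8.42% in the lowest GC bin and 35.3% in the third bin, at 49.2% with the word and 17.6% without it.

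Clustering of tRNA genes was examined next. A member counted as clustered when another nuclear tRNA gene lay within 1000 bp. An optimal peak was present at 23 of 148 clustered members (15.5%, 10.1 to 22.4) and at 53 of 174 isolated members (30.5%, 23.7 to 37.9), a difference of −14.9 percentage points (95% interval −23.7 to −5.68). Counted by cluster, 18 of the 68 clusters that hold members had a peak at 1 or more of them (26.5%, 16.5 to 38.6), a difference of −3.99 points from the isolated genes (−15.5 to 9.18), in a count added after seeing the data. A cluster has several genes at which a peak can fall and an isolated gene has 1, so this count is not set gene against gene. With genes that share their strongest entry counted once the difference was −17.9 points, and with each summit given to its nearest tRNA gene it was −18.3 points.

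Most clusters held 2 members, some of them beside tRNA genes inside protein-coding genes: there were 51, and 13 of these had a peak at a member. A further 6 clusters held 1 member each, and 1 of them had a peak at that member. Of the 8 clusters with 3 members, 2 had a peak, as did the 1 cluster with 4 members and 1 of the 2 clusters with 6. In 5 pairs both genes lay within 100 bp of the same summit: M02F4.t2 with M02F4.t1, T23F1.t1 with T23F1.t2, Y22D7AL.t3 with Y22D7AL.t4, C16B8.t2 with C16B8.t3, and rte-5 with F02D10.t2. In these pairs the peak cannot be assigned to 1 of the genes. The farthest summit counted was that of rte-5, 94 bp past the gene, and the nearest summits not counted lay 108 bp from M01E5.t1, 119 bp from C53C7.t1, 158 bp from W09G10.t3 and 179 bp from F46G11.t1.

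The largest clusters had 1 scored gene each. The cluster of F22F1.t2 to F22F1.t7 spans 2263 bp on chromosome X and holds genes for serine, aspartate, methionine and isoleucine. Of its 6 genes only the methionine gene F22F1.t6 was scored, with 152 in the pooled list, 92.3 in replicate 1 and 55.3 in replicate 2. The other 5 had no entry in any list. Their upstream GC content was 28% to 44%, and that of F22F1.t6 was 46%.

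The cluster of F28H6.t2 to F28H6.t7 holds 6 histidine genes of identical sequence over 1966 bp on X. Only F28H6.t5 was scored, with 26.3 in the pooled list and 17.9 in replicate 1, and no gene had an optimal peak. None of its 6 genes held a 32-base word found once in the genome, and for F28H6.t3 and F28H6.t4 this was also true of the 100 bp to each side, so a read of that length from there matches more than 1 place. In the cluster of 4 identical tyrosine genes, R11.t1 had 129 in the pooled list, 78.9 in replicate 1 and 43.0 in replicate 2, with an upstream GC content of 46% and the word upstream. The other 3, R11.t2, R11.t3 and R11.t4, had no entry in any list, a GC content of 38% each and no word.

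**Figure D4:**
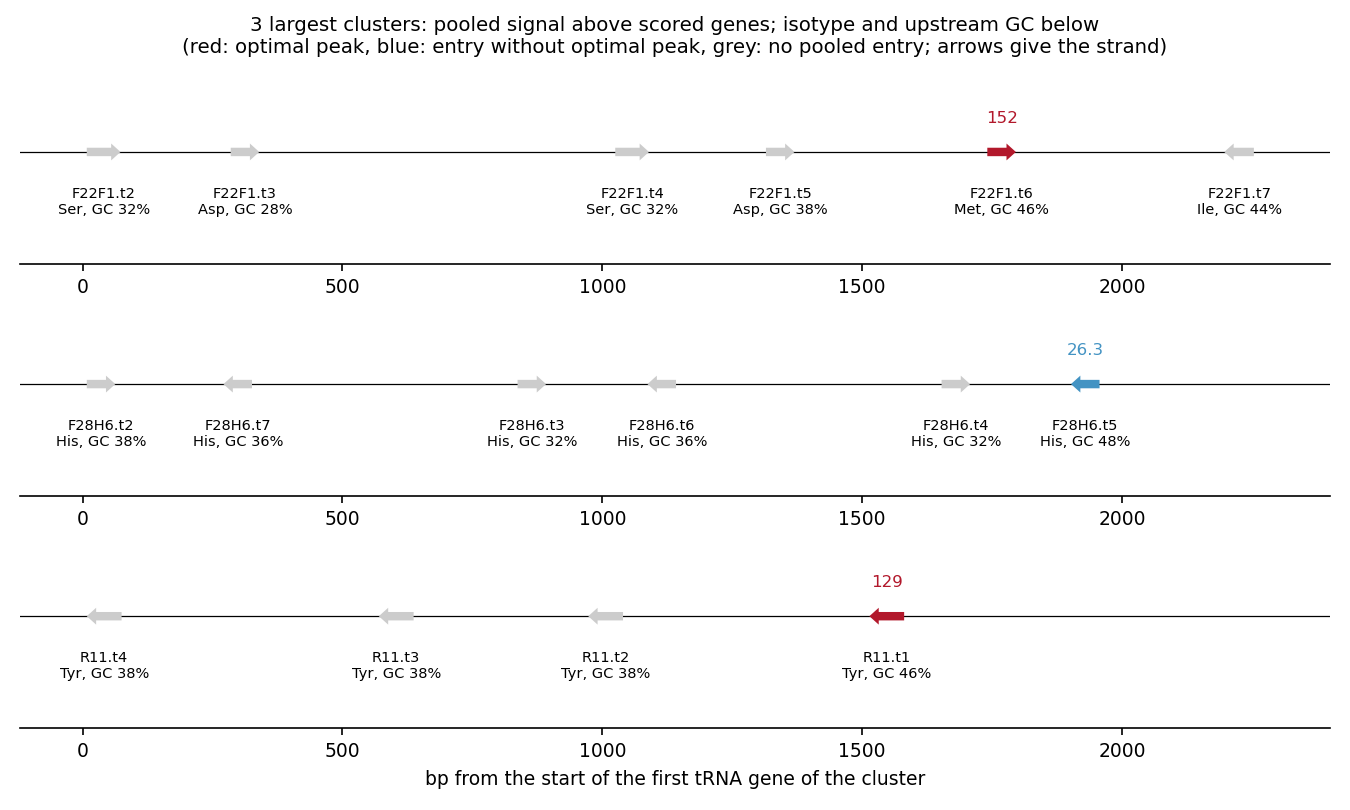
The 3 largest clusters of members, drawn to scale in bp from the start of the first gene, with arrows for the strand, the pooled signal above scored genes and the isotype and upstream GC content below each gene. In each cluster 1 gene is scored: F22F1.t6 at 152, F28H6.t5 at 26.3 and R11.t1 at 129.

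Clustered members also differed from isolated ones in the measures above. Their median upstream GC content was 40%, against 44% in isolated members, and the word was upstream of 25 of 148 clustered members (16.9%) and 36 of 174 isolated members (20.7%). With the word, 11 of 25 clustered members had a peak and 19 of 36 isolated members. Without it, 12 of 123 clustered members (9.76%, 5.14 to 16.4) and 34 of 138 isolated members (24.6%, 17.7 to 32.7) had one. Among members whose gene and flanks held at least 70% unique words, 21 of 126 clustered members (16.7%) and 53 of 158 isolated members (33.5%) had a peak. Within the 4 bins of upstream GC content, from low to high, a peak was present at 3 of 56, 6 of 39, 8 of 33 and 6 of 20 clustered members, and at 5 of 39, 11 of 43, 22 of 52 and 15 of 40 isolated members. The share was lower in clustered members in each of the 4 bins, from 5.36% against 12.8% in the lowest to 24.2% against 42.3% in the third, and the intervals overlapped in each.

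The distance to the nearest protein-coding gene was the last measure. An optimal peak was present at 20 of 58 members within 200 bp of one (34.5%, 22.5 to 48.1), 17 of 71 over 200 to 500 bp (23.9%), 12 of 47 over 500 to 1000 bp (25.5%), 11 of 65 over 1000 to 2000 bp (16.9%) and 16 of 78 farther away (12.2% to 31.2%). None of the 3 members that overlap a protein-coding gene had one. Members over 1000 bp away had a peak in 27 of 143 cases (18.9%) and members up to 1000 bp away in 49 of 176 (27.8%), a difference of −8.96 points whose 95% interval of −17.9 to 0.470 includes 0. Within 1000 bp, members that face the 5′ end of the neighbour had a peak in 24 of 68 cases (35.3%, 24.1 to 47.8) and members that face its 3′ end in 25 of 108 (23.1%, 15.6 to 32.2). The upstream GC content was 41% and 40% at the median in these 2 sets. Where the neighbour lay on the same strand 37 of 161 members had a peak, and on the opposite strand 39 of 161.

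The place of the summit was read along the strand of each gene. At the 76 genes, which had 71 distinct summits, the summit lay within the gene at 40 (52.6%, 40.8 to 64.2), upstream at 25 and downstream at 11. The downstream cases include Y22D7AL.t3, T23F1.t1, T23F1.t2, C16B8.t2, rte-5 and F02D10.t2, whose summits are shared with a neighbouring tRNA gene. With each summit given to its nearest tRNA gene, 56.3% lay within the gene. The median position was 29.5 bp after the 5′ end, with quartiles of −11.25 and 62.25 bp and a range of −86 to 165 bp. At genes inside protein-coding genes, 48 of 67 summits lay within the gene (71.6%, 59.3 to 82.0), 14 upstream and 5 downstream, with a median of 18 bp. Summits of shared peaks were counted once for each gene.

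**Figure D5:**
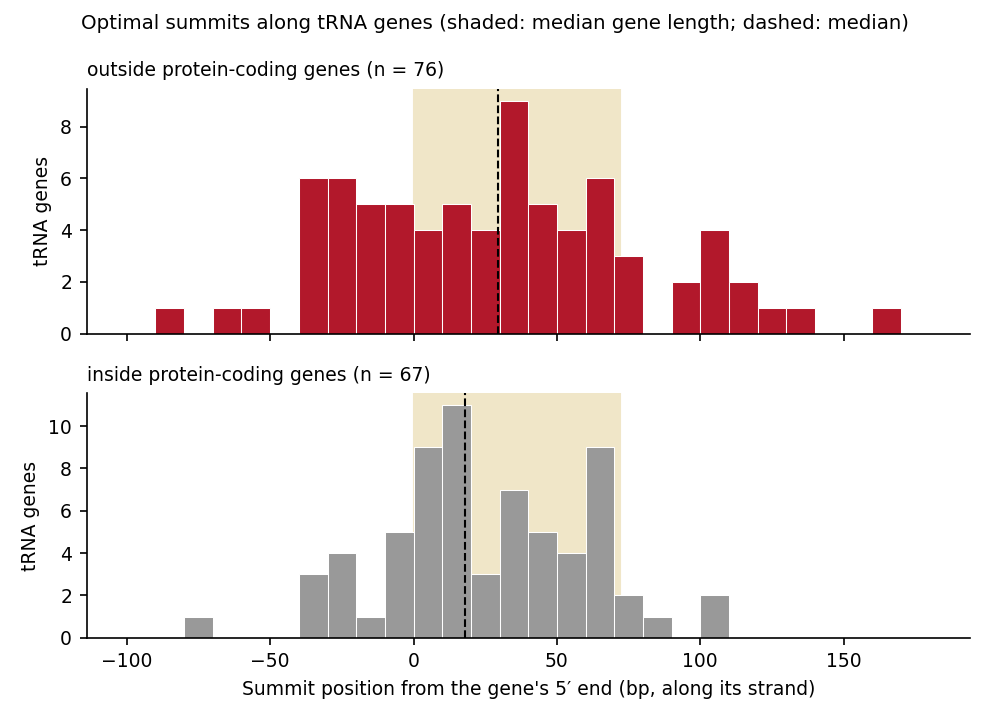
Optimal summits along the tRNA gene in bins of 10 bp from its 5′ end, for members (above, n = 76) and for genes inside protein-coding genes (below, n = 67), with the median gene length shaded and the median position dashed. The members' summits spread from 86 bp upstream to 165 bp past the 5′ end with a median of 29.5 bp, and those inside protein-coding genes have a median of 18 bp.

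Genes of the same pathway were counted as well. Aminoacyl-tRNA synthetases load each tRNA with its amino acid, and of 21 listed synthetase genes 20 were found by symbol. None of the 20 had an optimal summit in the promoter window, which reached 1000 bp before and 200 bp past the 5′ end, where 0.921% of the 19973 protein-coding genes did. At that background share fewer than 1 of 20 genes would carry one.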

How the data were processed

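Per the README files that the authors deposited beside the samples, reads of each replicate and of both pooled were aligned to ce11 and peaks were called against a control alignment. The authors deposited a relaxed list of 30000 entries per replicate and 1 for the pool, and an optimal set of 371 peaks. The sources used here do not give the aligner, peak caller, versions, read length or threshold. The deposited signal value of each entry ranked entries within a list, and the deposited −log10 q value was not used.

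Genes came from Ensembl release 115 and isotypes, symbols and sequences from RefSeq, both WBcel235. Shares carry exact (Clopper-Pearson) 95% intervals, and differences carry Newcombe intervals. Fisher's exact tests, two-sided, were adjusted by Benjamini-Hochberg over 2 comparisons, and the scoring and the test were tested on simulated data. Python 3.11.15, numpy 2.4.6, pandas 2.3.3, scipy 1.17.1 and matplotlib 3.10.9 were used.

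The members and lists were chosen with earlier results of these data known. The rule for named genes was the 20 strongest members, the strongest of each isotype, the 3 strongest without an optimal peak, the 5 with an optimal peak that differed most between replicates, the 2 largest clusters, suppressor genes and the neighbours of the 10 strongest. Families of identical genes, upstream GC content, mappability, the 6-base word, the genes next to the 100 bp limit and other named genes were chosen with their values in view. Alternatives were other distance limits, the strongest 185 optimal peaks, each replicate alone, strict membership, sites in place of genes, 1 gene per summit and other cluster limits.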

Additional observations from a re-analysis of the deposited data

How the results depend on the processing

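The 76 members with an optimal peak became 47 when only the strongest 185 optimal peaks were kept, and 67 to 80 under the other settings. The median signal of scored members was 28.4 to 49.98 with 1 replicate left out, since each replicate list has a scale of its own. The difference between genes outside and inside protein-coding genes ran from −1.05 to 2.87 points (Fisher's exact test, adjusted p 0.340 to 0.924) and was below 0 with a limit of 50 bp (−1.02), with sites in place of genes (−1.03) and with each summit given to its nearest gene (−1.05). The difference from pseudogenes kept its direction and its call under all 8 settings (14.6 to 24.8 points). The difference between clustered and isolated members ran from −19.0 to −9.33 points under the planned settings and was −16.9 among members with at least 70% unique words. It was −3.99 with clusters in place of genes, an alternative added after seeing the data, in which a cluster of several genes is set against single genes. It was −17.9 with sites in place of genes. The difference by distance to a protein-coding gene ran from −8.96 to −6.12 points, and the share of summits within the gene from 50% to 59.7%. No paired analysis was possible because there is 1 group of samples. Depth is unknown, so the missing entry of a gene cannot be told apart from too few reads.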

Other observations

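Among tRNA pseudogenes inside protein-coding genes, 3 of 113 had an optimal peak (2.65%, exact 95% interval 0.551 to 7.56), all chosen after their values were seen. D1046.t1, within cfim-2, had 305 in the pooled list, 202 in replicate 1 and 102 in replicate 2, and it overlaps the snoRNA gene D1046.6. T08B2.t1, within the synthetase gene fars-1, had 148, 109 and 40.9 in the same lists and overlaps the snoRNA gene T08B2.13. C52E12.t1, within the kinesin gene unc-104, had 182, 125 and 57.8, holds both the B box core and the A box start, and lies 1295 bp from the tRNA gene C52E12.t3. For the first 2 the peak cannot be assigned to the pseudogene or to the snoRNA gene.

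Of the 22 mitochondrial tRNA genes, which are read from the mitochondrial genome without RNA polymerase III, 1 had an optimal summit within 100 bp. Of the 371 optimal peaks 364 lay on the nuclear chromosomes and the others on the mitochondrial genome. The share of mitochondrial windows with an optimal summit was not counted. The count of 1 of 22 therefore has no background beside it and is not read as a result about these genes.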
